A study of Sus scrofa with 14 samples.

Results

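The matrix metalloproteinases MMP1, MMP2, MMP3, MMP7, MMP9 and MMP14 and the tissue inhibitors TIMP1 and TIMP2 were followed in the jejunum of pigs exposed to digested onion. Their probes were taken from the array by the RefSeq accession printed beside each probe. By this rule 7 of the 8 genes had a probe, with 11 probes between them, out of 3020 named genes on 6686 named probes of 43603 in all. MMP7 had no probe by this rule and is not analysed here. The family was taken up after the onion over control ratios of MMP3 and MMP9 in these same pigs had been seen, so the ratios of those 2 genes are given as a description, and nothing is read from whether they passed a threshold.

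In the small intestinal segment perfusion (SISP) model, adjacent segments of jejunum were prepared in anaesthetised 5 week-old male piglets, with blood supply and innervation intact, and perfused for 6 h. In each pig one segment received an onion digest and the adjacent one the control digest (Sd), made by taking saline without onion through the same in vitro digestion. Pigs 1, 2 and 4 were given yellow onion digest (YOd) and pigs 5, 6, 7 and 8 white onion digest (WOd), which makes 14 arrays from 7 pigs, with 1 array per segment. Each replicate was a separate animal. The onion digests were diluted in peptone and the Sd more strongly in saline solution, so onion, vehicle and dilution cannot be told apart in any onion over Sd ratio. RNA came from mucosal scrapings, described as mainly epithelial and mucosal cells. All 7 enterocyte markers with a probe, such as ANPEP and SLC5A1, were well above background on all 14 arrays, and each was saturated on 13 or 14 of them.

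Matrix metalloproteinases are zinc-dependent endopeptidases that cleave collagens, proteoglycans and other components of the extracellular matrix. Most are secreted as inactive zymogens, are activated by other proteases, and are held in check by the TIMPs, which bind the active site. In the gut they are made largely by fibroblasts and leukocytes of the lamina propria, and they are known for their part in wound repair and in the tissue damage of inflammatory bowel disease. In the pig annotation (assembly Sscrofa11.1) MMP1, MMP3 and MMP7 lie on chromosome 9, where MMP3 sits between MMP1 and MMP12, while MMP2 is on chromosome 6, MMP14 on 7, MMP9 on 17, TIMP2 on 12 and TIMP1 on X.

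Across the 14 arrays, between 50.6% and 70.7% of the probes were well above background (median 64.3%), with the lowest share on the Sd array of pig 8. All 11 probes of the family were well above background and none was saturated on any array. A level is given on the log2 scale relative to the 75th percentile of its array, so that 0 is the brightness of the 75th percentile, and a ratio is the onion level minus the Sd level of the same pig. Levels of different genes come from different probes and were not set against each other. Both arrays of pigs 2 and 7 lay on different slides, and the Sd arrays of these pigs were scanned in a later session. How precise any value can be is set by the small number of arrays.

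**Figure D1:**
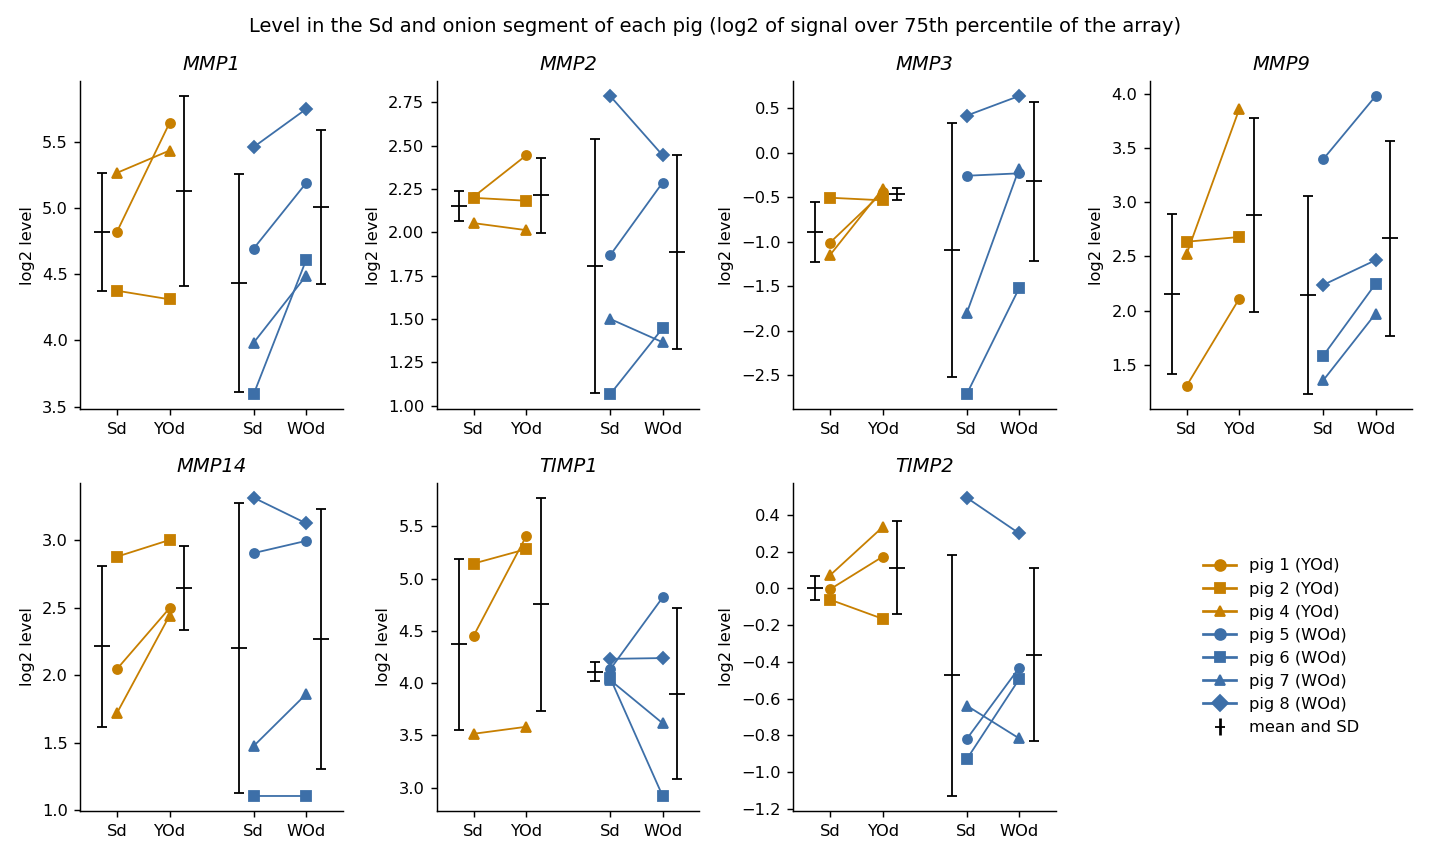
Level of each gene (log2 of the signal over the 75th percentile of the array) in the Sd segment and the onion segment, with 1 line per pig and the mean with its SD beside each group. MMP9 was higher in the onion segment of all 7 pigs, MMP3 of 6, whereas TIMP1 was higher in some pigs and lower in others.

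MMP3, or stromelysin 1, has a broad range of substrates and activates other pro-MMPs. Its level in the Sd segments was -1.01, -0.51 and -1.15 in pigs 1, 2 and 4, and it was -0.45, -0.54 and -0.41 in the YOd segments of these pigs. In the pigs given WOd, the Sd level was -0.26, -2.71, -1.80 and 0.41 in pigs 5, 6, 7 and 8, against -0.23, -1.52, -0.18 and 0.63 after WOd. Between pigs, Sd levels of MMP3 spanned 8.73-fold, the widest range of the 7 genes. With both onions, levels of the onion and Sd segments overlapped between pigs.

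The within-pig log2 ratio of MMP3 was 0.56, -0.03 and 0.74 in pigs 1, 2 and 4 for YOd. For WOd it was 0.03, 1.19, 1.62 and 0.22 in pigs 5, 6, 7 and 8. The 2 largest ratios belonged to the 2 pigs with the lowest Sd levels, but the Sd level is itself subtracted in the ratio. Pig 5 hardly differed between its segments. The mean was 0.42 (SE 0.19) for YOd/Sd in 3 pigs, 0.77 (SE 0.29) for WOd/Sd in 4 pigs, which is 1.70-fold, and 0.62 (SE 0.20) over the 7 pigs, which is 1.54-fold. Without pig 7, whose arrays lay on different slides, the WOd/Sd mean was 0.48, and without pig 6 it was 0.62.

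MMP9, or gelatinase B, cleaves denatured collagens and type IV collagen and is stored in neutrophil granules. In the pigs given YOd, the Sd level was 1.31, 2.64 and 2.52 in pigs 1, 2 and 4, against 2.11, 2.68 and 3.86 after YOd. In the pigs given WOd it was 3.40, 1.58, 1.36 and 2.24 in pigs 5, 6, 7 and 8 in the Sd segment, against 3.98, 2.25, 1.97 and 2.47 after WOd. The onion segment was the higher one in all 7 pigs, although the levels of the groups overlapped because pigs differed by 4.25-fold in their Sd segments.

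The log2 ratio of MMP9 was 0.80, 0.04 and 1.33 in pigs 1, 2 and 4 for YOd. It was 0.58, 0.67, 0.62 and 0.23 in pigs 5, 6, 7 and 8 for WOd, a narrower range than for YOd. The mean was 0.73 (SE 0.25) for YOd/Sd, 0.52 (SE 0.15) for WOd/Sd and 0.61 (SE 0.15) over the 7 pigs, or 1.65-fold, 1.44-fold and 1.53-fold. The dimmer probe of MMP9 gave 1.14, -0.15 and 1.47 in the YOd pigs and 0.72, 0.80, 1.06 and 0.13 in the WOd pigs, so that pig 2 was on the other side of 0 with this probe. Among all genes tested, the onion segment was the higher one in every pig for 33.4% in YOd/Sd, 6.18% in WOd/Sd and 1.62% over the 7 pigs.

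Pig 4 had the largest MMP9 ratio of all, and the Sd array of this pig was the brighter of its 2 arrays. Dividing each array by its 75th percentile added 0.62 to every log2 ratio of pig 4, while the other pigs received between -0.09 and 0.19. Relative to the median ratio of all 2400 genes, which was 0.19 in pigs 1 and 4 and from -0.07 to 0.10 in the remaining pigs, MMP9 was higher in all 7 pigs and MMP3 in 5 of 7. Without scaling, the MMP9 ratio was 0.71 in pig 4 and -0.08 in pig 2, and both MMP9 and MMP3 were above 0 in 6 of 7 pigs. The mean over the 7 pigs was then 0.46 for MMP9 and 0.47 for MMP3.

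**Figure D2:**
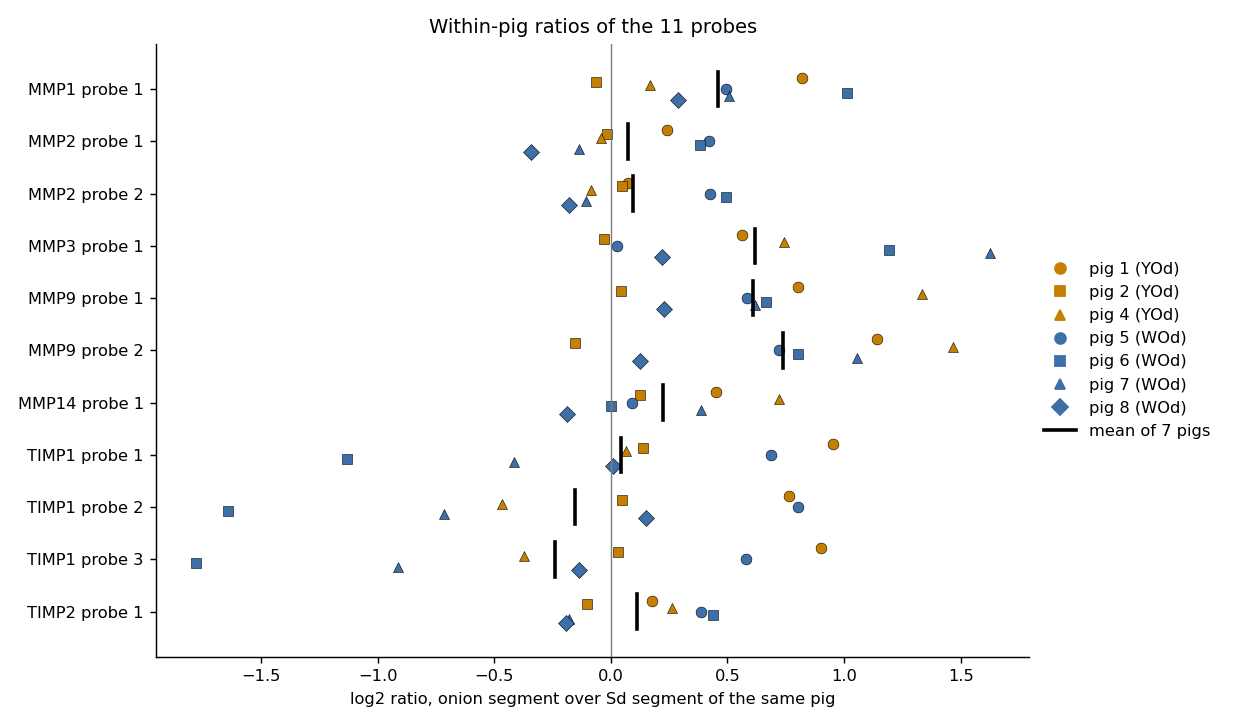
Within-pig log2 ratio (onion/Sd) on the horizontal axis for each of the 11 probes, with 1 symbol per pig and a bar at the mean of the 7 pigs. The probes of MMP9 lie to the right of 0 apart from pig 2 on the second probe, whereas the 3 TIMP1 probes reach from -1.78 to 0.95.

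MMP1, or interstitial collagenase, cuts intact fibrillar collagen and lies next to MMP3 on chromosome 9. Its Sd level was 4.82, 4.37 and 5.26 in pigs 1, 2 and 4, against 5.64, 4.31 and 5.43 after YOd. In the WOd pigs the Sd level was 4.69, 3.59, 3.98 and 5.46 in pigs 5, 6, 7 and 8, against 5.19, 4.61, 4.49 and 5.75 after WOd. The WOd segment was therefore the higher one in all 4 pigs, with ratios of 0.49, 1.01, 0.51 and 0.29, while the ratios for YOd were 0.82, -0.06 and 0.17. The mean for WOd/Sd was 0.57 (SE 0.17), or 1.49-fold, just under the fold change threshold of 1.5, with an adjusted p of 0.999 (limma). For YOd/Sd it was 0.31 (SE 0.20, adjusted p = 0.426), and without scaling it was -0.0012.

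MMP2, or gelatinase A, is expressed by many stromal cells and is activated at the cell surface by MMP14, a membrane-type metalloproteinase that binds pro-MMP2 through TIMP2. MMP14 levels were 2.05, 2.88 and 1.72 in the Sd segments of pigs 1, 2 and 4 and 2.50, 3.0 and 2.44 in their YOd segments, so that each YOd segment was higher than its Sd segment. The mean ratio was 0.43 (SE 0.17, adjusted p = 0.386, limma), and it was 0.12 without scaling. For WOd the MMP14 level was 2.90, 1.11, 1.48 and 3.31 in the Sd segments of pigs 5, 6, 7 and 8 and 2.99, 1.11, 1.86 and 3.12 after WOd, with a mean ratio of 0.07 (SE 0.16, adjusted p = 0.999). MMP14 thus had the same level in both segments of pig 6, where MMP3 differed by 1.19. The difference between the onions for MMP14 was 0.36 (SE 0.23, adjusted p = 0.852) and was not called.

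MMP2 levels ranged from 1.07 to 2.79 in the 7 Sd segments, with a median of 2.05, and from 1.37 to 2.45 in the 7 onion segments, with a median of 2.18. The ratios were 0.24, -0.02 and -0.04 for YOd and 0.42, 0.38, -0.13 and -0.34 for WOd, and a further MMP2 probe gave 0.07, 0.05 and -0.08 and 0.42, 0.49, -0.11 and -0.18. The sign therefore varied between pigs with either onion. The mean over the 7 pigs was 0.07 (SE 0.12, adjusted p = 0.827, limma), smaller than the spread between pigs, and it was -0.078 without scaling.

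TIMP1 is a secreted inhibitor of most MMPs and binds pro-MMP9. Its Sd level was 4.45, 5.14 and 3.52 in pigs 1, 2 and 4, against 5.40, 5.28 and 3.58 after YOd. In the WOd pigs the Sd levels lay close together, at 4.13, 4.05, 4.03 and 4.23 in pigs 5, 6, 7 and 8, whereas the WOd levels were 4.82, 2.92, 3.62 and 4.24. The 4 Sd segments of these pigs spanned 1.15-fold and the 4 WOd segments 3.73-fold.

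The TIMP1 ratio was 0.95, 0.14 and 0.07 in pigs 1, 2 and 4 for YOd, and 0.69, -1.13, -0.41 and 0.01 in pigs 5, 6, 7 and 8 for WOd. With WOd it therefore went in opposite directions between pigs, whereas with YOd it was above 0 in each pig. In pig 4 this rested on the scaling, since the ratio was -0.56 without it and -0.13 relative to the median of all genes. For YOd/Sd, 33.4% of all genes tested were higher in every pig. The mean TIMP1 ratio was 0.39 (SE 0.21, adjusted p = 0.386) for YOd/Sd, -0.21 (SE 0.29, adjusted p = 0.999) for WOd/Sd and 0.04 (SE 0.21, adjusted p = 0.947) over the 7 pigs, all by limma. The 3 TIMP1 probes disagreed in sign over the 7 pigs, with means of 0.04, -0.15 and -0.24, and the mean of the probe with the highest level was -0.011 with quantile normalisation and -0.11 without scaling. They disagreed in pig 4, at 0.07, -0.47 and -0.37, and gave the decrease in pig 6 alike, at -1.13, -1.64 and -1.78.

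TIMP2 is constitutively expressed in many tissues. Its Sd level was -0.0046, -0.06 and 0.07 in pigs 1, 2 and 4 and -0.82, -0.93, -0.64 and 0.49 in pigs 5, 6, 7 and 8. After onion it was 0.17, -0.17 and 0.33 with YOd and -0.43, -0.49, -0.82 and 0.30 with WOd. The ratios lay between -0.19 and 0.44 and had both signs with each onion. Their mean was 0.11 (SE 0.15, adjusted p = 0.699, limma) for YOd/Sd, 0.11 (SE 0.18, adjusted p = 0.999) for WOd/Sd and 0.11 (SE 0.11, adjusted p = 0.727) over the 7 pigs, and without scaling it was -0.20 for YOd/Sd and -0.038 over the 7 pigs.

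To set MMP3 and MMP9 against the inhibitors, the inhibitor ratio was subtracted from the proteinase ratio in each pig, which removes the scaling of the arrays. MMP9 minus TIMP2 was 0.62, 0.15 and 1.07 in pigs 1, 2 and 4 and 0.20, 0.23, 0.80 and 0.42 in pigs 5, 6, 7 and 8. It was above 0 in all 7 pigs, with a mean of 0.50 (SD 0.35). MMP3 minus TIMP2 was 0.38, 0.08 and 0.48 for YOd and -0.36, 0.75, 1.80 and 0.42 for WOd, and was above 0 in 6 of 7 pigs, with a mean of 0.51 (SD 0.67). Since MMP3 and MMP9 were chosen for high ratios, the side of 0 on which these differences fall is no independent result.

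Against TIMP1 the pigs divided. MMP9 minus TIMP1 was -0.15, -0.09 and 1.27 for YOd and -0.11, 1.80, 1.03 and 0.22 for WOd, above 0 in 4 of 7 pigs, with a mean of 0.57 (SD 0.79). MMP3 minus TIMP1 was -0.39, -0.17 and 0.67 for YOd and -0.66, 2.32, 2.04 and 0.21 for WOd, also above 0 in 4 of 7 pigs, with a mean of 0.58 (SD 1.18). In pigs 6 and 7 MMP3 was higher and TIMP1 lower in the WOd segment, whereas in pigs 1, 2 and 5 the TIMP1 ratio exceeded that of either proteinase. For YOd the sign of the mean rested on pig 4, as MMP9 minus TIMP1 was 0.34 with it and -0.12 without it, and MMP3 minus TIMP1 was 0.04 and -0.28. With the mean of the probes of a gene, MMP9 minus TIMP1 was 0.79 and above 0 in 5 of 7 pigs.

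**Figure D3:**
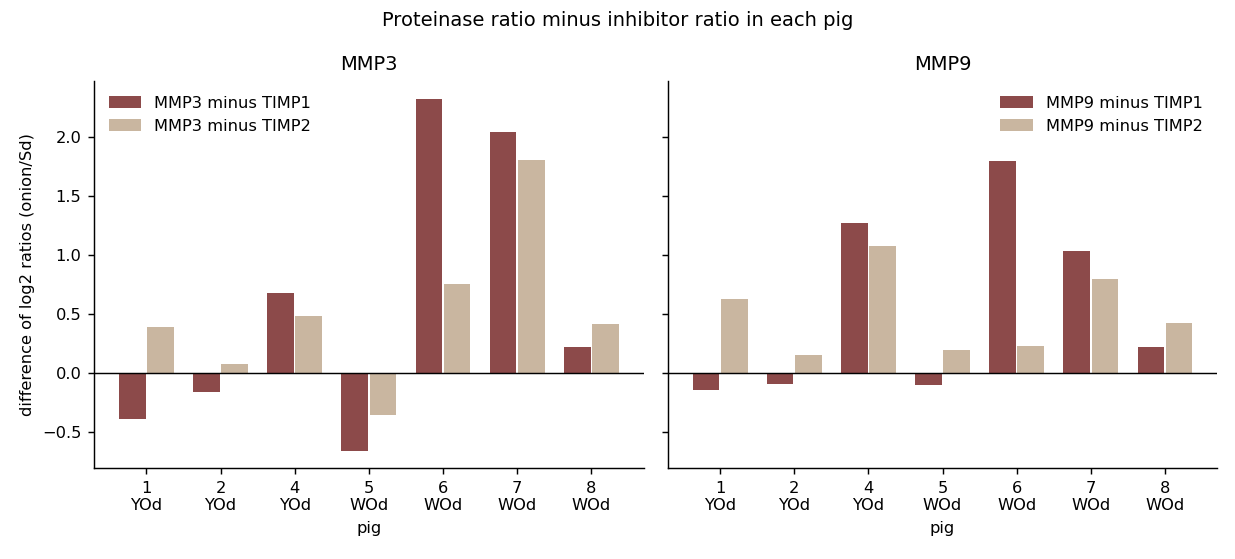
Difference between the log2 ratio (onion/Sd) of MMP3 (left) or MMP9 (right) and that of TIMP1 or TIMP2 in each pig, with bars from 0. MMP9 minus TIMP2 is above 0 in all 7 pigs, whereas the differences from TIMP1 are below 0 in pigs 1, 2 and 5 and reach 2.32 in pig 6.

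Across all genes, limma was run on the pairs and a gene was called at a raw p below 0.05 with a fold change over 1.5, the thresholds of the study. For YOd/Sd 1 of the 7 family genes was called, MMP9, against 4.53% of 2449 genes tested. For WOd/Sd it was MMP3, against 1.19% of 2429 genes. Over the 7 pigs MMP3 and MMP9 were called, against 1.25% of 2400 genes. As these 2 genes were chosen on these contrasts, nothing is read from the counts. No gene passed an adjusted p of 0.05 in any of the comparisons with limma. Of the alternatives run, 77 genes passed it for YOd/Sd without pig 2, 2 for WOd/Sd without pig 7 and 1 for onion/Sd with a slide block. With all pigs, 11.2%, 2.76% and 7.04% of the genes had a raw p below 0.05 in YOd/Sd, WOd/Sd and onion/Sd, and 4.12% in the difference between the onions. The share of increases among the called genes depended on the scaling. Of 111 genes called for YOd/Sd, 88 were higher and 23 lower, against 91 higher and 46 lower with each array scaled to its median and 7 higher and 95 lower without scaling. The split for WOd/Sd was 19 higher and 10 lower, against 16 and 19 with median scaling and 15 and 9 without scaling. That for onion/Sd was 23 higher and 7 lower, against 13 and 9 with median scaling and 4 and 12 without scaling. Of the 88 genes called for the difference between YOd and WOd effects, 56 were higher for YOd and 32 lower, against 6 and 92 without scaling.

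The median log2 ratio of the 7 genes was 0.39 for YOd/Sd, beside 0.14 for all genes tested, 0.11 beside 0.05 for WOd/Sd and 0.23 beside 0.09 over the 7 pigs. Among the 7 are MMP3 and MMP9, chosen for high ratios, so nothing is read from these medians. Over the 7 pigs, MMP1, MMP2, MMP14, TIMP1 and TIMP2 were at 0.46, 0.07, 0.23, 0.04 and 0.11. For YOd/Sd the mean ratio was above 0 for all 7 genes, but it turned below 0 for MMP1, MMP2 and TIMP2 without scaling and for MMP2 with the processed values of the authors. For WOd/Sd it was above 0 for 6 of 7 genes, TIMP1 being the exception. The difference between the YOd and WOd ratios was called for 0 of 7 genes, beside 3.52% of 2497 genes, with adjusted p between 0.852 and 0.998 (limma). It was largest for TIMP1, at 0.60 (SE 0.42). Without pig 5 it was 0.90 for TIMP1 and called, as were 121 of 2481 genes. The difference was -0.34 (SE 0.41) for MMP3 and 0.20 (SE 0.30) for MMP9, the latter being -0.075 without scaling.

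**Figure D4:**
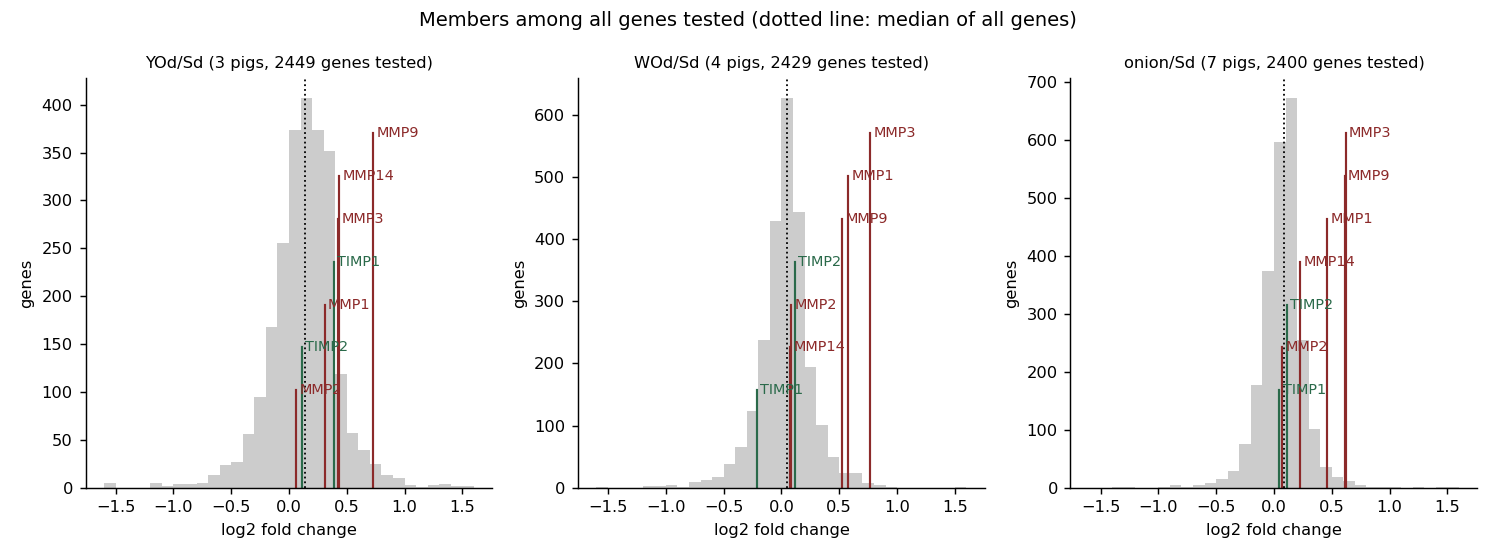
Number of genes by log2 fold change in the 3 comparisons (grey, values beyond 1.6 on either side drawn in the outermost bar), with the proteinases in red, the inhibitors in green and the median of all genes dotted. MMP9 and MMP3 lie in the right tail in the 7 pigs, at 0.61 and 0.62, while TIMP1, TIMP2 and MMP2 lie near the median of 0.09.

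For the other cell types in the scrapings, the RNA of marker genes was followed. In bulk tissue, fewer cells of a type and less RNA per cell cannot be told apart by such markers. In pigs 1, 2, 5, 6 and 7 the TIMP1 ratio had the same sign as those of the smooth muscle genes DES and CNN1. In pigs 4 and 8 it did not, but the dimmer TIMP1 probes gave -0.47 and -0.37 in pig 4 and 0.15 and -0.14 in pig 8. The mean ratio of the smooth muscle markers with a probe, ACTA2, DES and CNN1, 3 of 8 on the list, was 0.18, -0.01 and -0.29 in pigs 1, 2 and 4 and 0.50, -0.52, -0.76 and -0.14 in pigs 5, 6, 7 and 8. DES, the intermediate filament of muscle, had ratios of 1.03 in pig 5, -0.72 in pig 6 and -1.0 in pig 7, and CNN1, or calponin, had 0.90, -1.27 and -0.72, next to 0.69, -1.13 and -0.41 for TIMP1. ACTA2, the actin of smooth muscle, had -0.42, 0.44 and -0.55 in these pigs, opposite to TIMP1 in pigs 5 and 6. In pig 1, where TIMP1 was at 0.95, the ratio was 0.38 for DES, 0.22 for CNN1 and -0.07 for ACTA2. In pig 8, with TIMP1 at 0.01, it was -0.05, -0.45 and 0.08. In pig 4, with TIMP1 at 0.07, it was -0.48, -0.47 and 0.07. The summed level of these markers ranged from 24.6 to 38.6 in the Sd segments and from 21.0 to 45.2 in the YOd segments of the YOd pigs, and from 19.3 to 30.7 and from 11.4 to 31.2 in those of the WOd pigs. None of the 3 markers was at the floor on any array. Their part in the TIMP1 ratios was not tested.

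The genes whose levels over the 14 arrays were most like TIMP1, among 2182 genes above the floor on every array, were TPM2 with a Pearson r of 0.92, MYL9 with 0.88, UCHL1 with 0.87, CNN1 with 0.86 and SLC2A4 with 0.84. TPM2 and MYL9 encode tropomyosin and a myosin light chain of smooth muscle. The within-pig ratios of TPM2 and TIMP1 had an r of 0.98 over the 7 pigs. These values describe arrays that share pigs, RNA preparation and scaling, and carry no test.

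**Figure D5:**
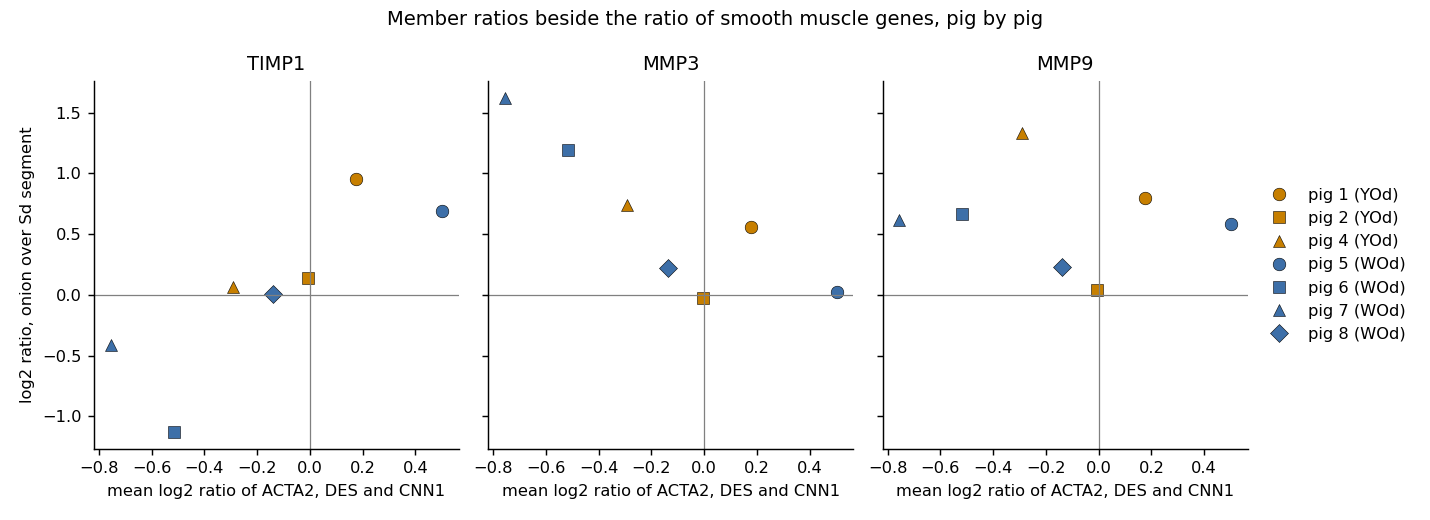
Log2 ratio (onion over Sd segment) of TIMP1, MMP3 and MMP9 in each pig against the mean log2 ratio of the smooth muscle genes ACTA2, DES and CNN1 in the same pig. TIMP1 is highest in pigs 1 and 5, which lie to the right, and lowest in pigs 6 and 7, which lie to the left, while MMP3 is highest in pigs 6 and 7 and MMP9 is above 0 throughout.

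MMP3 followed genes of other kinds. Its nearest genes were PALMD with an r of 0.93, ITM2A with 0.93, FCGR3A with 0.91, GZMA with 0.91 and TLR4 with 0.90, of which FCGR3A is an Fc receptor of leukocytes, GZMA a protease of cytotoxic lymphocytes and TLR4 the receptor for lipopolysaccharide. Of the family, MMP14 was the nearest to MMP3 by level, at an r of 0.86. For the within-pig ratios the r of MMP3 was 0.34 with MMP14, 0.50 with MMP1, 0.42 with MMP9 and -0.63 with TIMP1. MMP9 was most like KLRK1 with 0.86, ID4 with 0.85, DOK2 with 0.85, VPS26B with 0.80 and LPCAT4 with 0.79, of which KLRK1 is a receptor of natural killer and T cells. MMP3 and MMP9 themselves had an r of 0.47.

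Neutrophils carry MMP9, and 6 of 12 neutrophil markers had a probe. Their mean ratio was 0.70, 0.11 and 0.11 in pigs 1, 2 and 4 and 0.47, -0.02, 0.05 and -0.17 in pigs 5, 6, 7 and 8, next to MMP9 ratios of 0.80, 0.04, 1.33, 0.58, 0.67, 0.62 and 0.23. The calprotectin subunit S100A9 was the only one of them called, in YOd/Sd, where 4.53% of all genes tested were called. Its log2 ratio was 0.67 (SE 0.27, adjusted p = 0.386, limma), and it was 1.51 in pig 1. The call was lost without pig 1 (0.26) or pig 4 (0.80), with normexp (0.58), without scaling (0.36), and at nearly the same ratio with quantile normalisation, no floor, no filter, the mean of probes and no pig block. The summed level of the 6 markers ranged from 13.9 to 21.8 in the Sd and from 20.9 to 24.9 in the YOd segments of the YOd pigs, and from 6.77 to 37.7 and from 8.48 to 26.6 in those of the WOd pigs. In pig 4, which had the largest MMP9 ratio, the neutrophil mean was lowered by PTGS2, at -1.29 and above the floor on 10 arrays. The other 5 markers lay between 0.22 and 0.68 there, and the scaling had added 0.62 to each of them, as to MMP9. PTGS2 also fell below the neutrophil mean of pig 1, with -0.32. It lay above that of pigs 2, 5 and 8, with 0.38, 0.69 and 0.11, and had a ratio of 0 for pigs 6 and 7. The part of these cells in the MMP9 ratios was not tested.

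Of the fibroblast markers, 4 of 10 had a probe and THY1 was above the floor on 2 of the 14 arrays. The mean ratio of the other 3 was 0.27, -0.20 and 0.68 for YOd and 0.15, 0.27, 0.10 and -0.22 for WOd. Macrophage and monocyte markers, 7 of 10, had mean ratios between -0.22 and 0.34. Endothelial markers, 5 of 8, had mean ratios between -0.25 and 0.80, and lymphocyte markers, 7 of 9, of which 5 were above the floor on at least 7 arrays, between -0.29 and 0.57. No gene of these 4 lists was called in YOd/Sd, WOd/Sd or onion/Sd, beside 4.53%, 1.19% and 1.25% of all genes tested. The difference between the onions was called for 3.52% of 2497 genes. Of these lists it was called for CLDN5, a tight junction protein of endothelium, at 1.23 (SE 0.49, adjusted p = 0.852, limma). It was also called for CD3D, a subunit of the T cell receptor complex, at 0.69 (SE 0.26, adjusted p = 0.852, limma). No other gene tested from these lists was called for it. CLDN5 had ratios of 1.79, -0.15 and 0.51 for YOd and -1.12, 0.21, -1.03 and -0.14 for WOd, and without pig 1 its difference was 0.70 and not called. CD3D had 0.07, -0.09 and 0.62 for YOd and -0.42, -0.83, -0.65 and -0.07 for WOd, and without pig 4 its difference was 0.48 and not called. The ratios of both genes overlapped between the onions. The difference was 0.33 for CD3E and 0.32 for CD3G, which had ratios of 0.52 and 1.02 in pig 7. Of the other endothelial markers, ENG had a difference of -0.17, and PECAM1, CDH5 and VWF had 0.47, 0.54 and 0.12. The enterocyte means, from -0.11 to 0.61, came from saturated probes.

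Around the family, 27 other metalloproteinases and inhibitors were looked for and 7 had a probe. None of them was called in YOd/Sd or onion/Sd, beside 4.53% and 1.25% of all genes tested. In WOd/Sd, where 1.19% of all genes were called, MMP20, or enamelysin, was lower by the same thresholds, with -0.76 (SE 0.26, adjusted p = 0.999, limma). MMP20 was above the floor on 10 of the 14 arrays and lay at the floor in both segments of pig 5. Its mean was -0.23 with normexp, -0.38 with the mean of its probes and -0.47 without pig 6, and the call was lost in each of these. It was also lost without pig 8, with no pig block and with a slide block in place of the pig block. That slide block no longer paired the segments of pigs 6 and 8. MMP12, or macrophage elastase, the neighbour of MMP3 on chromosome 9, was looked at after its values were seen. Its ratio was 0.73, -0.11 and 2.04 in pigs 1, 2 and 4 for YOd and 0.26, -0.63, 0.82 and -0.56 for WOd, and it was not called. Pigs 6 and 8 thus had MMP12 lower and MMP3 higher after WOd.

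Of 13 activators and their inhibitors, such as the plasminogen activator PLAU, 7 had a probe and 5 were tested. None was called in YOd/Sd, WOd/Sd or onion/Sd, beside 4.53%, 1.19% and 1.25% of all genes tested. The difference between the onions was called for 3.52% of 2497 genes, among them SERPINE2, or protease nexin 1, an inhibitor of thrombin and plasminogen activators. Its ratio was 0.50, 0.37 and 0.30 in the YOd pigs and -0.32, -0.42, -0.36 and -0.11 in the WOd pigs, so that the groups did not overlap. In pig 4 the scaling added 0.62 to the ratio, which was then 0.30. The sign in pig 4 and the lack of overlap therefore depended on the scaling. The difference was 0.69 (SE 0.18, adjusted p = 0.852, limma). A pattern of this kind, every YOd pig on one side of 0 and every WOd pig on the other, was found in 1.32% of 2497 genes.

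Of 24 cytokines and transcription factors known to induce MMP genes, 14 had a probe. None of those tested was called in YOd/Sd, WOd/Sd or onion/Sd, beside 4.53%, 1.19% and 1.25% of all genes tested. For the difference between the onions 3.52% of 2497 genes were called. FOS, a subunit of the AP-1 factor that binds the promoters of MMP1 and MMP3, was among them, at -1.66 (SE 0.67, adjusted p = 0.852, limma). Its ratio was -2.75, -0.14 and -0.25 for YOd and -0.46, 0.96, 1.5 and 0.46 for WOd. Without pig 1 the difference was -0.81 and not called. Of 26 matrix substrates, 10 had a probe, among them COL1A2 and DCN, and none was called, with median log2 ratios of 0.13 for YOd/Sd, 0.07 for WOd/Sd and 0.10 over the 7 pigs, near those of all genes.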

How the data were processed

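The authors hybridised 1 Cy3-labelled sample per array and deposited the scanner output of Feature Extraction 10.7.3.1, from which the processed signal intensity was used. They also deposited processed log2 values, used as an alternative. The submitters' processing notes name RMA, and for the members these values differed from the scaled intensities by 1 constant per comparison. Control and outlier spots were left out, spots of a probe averaged, intensities divided by the array's 75th percentile, floored at the pooled 40th percentile (log2 of -4.43) and log2 transformed. A gene was represented by its probe with the highest mean. Probes were named by matching accessions to a RefSeq gene table (Sscrofa11.1), and 3 probes through a supplementary list of the study, whose identities only were used. Genes entered a test if their signal exceeded the floor on at least as many arrays as the smaller group had. limma 3.58.1 in R 4.3.3 was run with the pig as a block, as in the study's methods, for YOd/Sd, WOd/Sd, onion/Sd and YOd minus WOd, with Benjamini-Hochberg adjustment over all genes tested, and was tested on simulated data. Segments of a pig are paired by animal, and deviations of the 2 arrays of a pig from their group means correlated at 0.52 to 0.75 over 2182 genes. The members, lists and tests were chosen with earlier results of these data known. The genes named were all members, the 5 genes most like MMP3, MMP9 and TIMP1, and genes of the pathway lists called in a comparison. S100A9, CLDN5 and CD3D, from the marker lists, were named after their values were seen. Alternatives were quantile normalisation, normexp background correction (offset 50, on the median signal, since the files hold no mean signal), no floor, no filter, the mean of probes, the authors' values, no pig block, a slide block in place of the pig block, and each pig left out. Scaling by the median and no scaling were added after seeing the data. No sequences are printed.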

Additional observations from a re-analysis of the deposited data

Results flagged for a closer look

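SERPINE2, of the list of activators and their inhibitors, was higher after YOd in 3 of 3 pigs and lower after WOd in 4 of 4. For pig 4 the sign rested on the scaling, which added 0.62 to a ratio that was then 0.30. The difference between the onions was 0.69 on the log2 scale (SE 0.18), with an adjusted p of 0.852 by limma, so that it did not pass the correction over all genes. It was 0.64 to 0.76 with each pig left out, 0.49 with the mean of its probes and 0.41 without scaling. It was no longer called in either of the last 2, nor with no pig block or a slide block. The slide block replaced the pig block, so the segments of pigs 6 and 8, which shared a slide, were no longer paired.

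FOS differed between the onions by -1.66 on the log2 scale (SE 0.67), with an adjusted p of 0.852 by limma. It was lower after YOd in 3 of 3 pigs and higher after WOd in 3 of 4, and the difference was no longer called without pig 1, 6, 7 or 8, with quantile normalisation or with a slide block.

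CLDN5, of the endothelial markers, differed between the onions by 1.23 on the log2 scale (SE 0.49), with an adjusted p of 0.852 by limma. It was no longer called without pig 1, 4, 5 or 7, with quantile normalisation, no pig block, a slide block or no scaling. CD3D, of the lymphocyte markers, differed by 0.69 (SE 0.26), with an adjusted p of 0.852 by limma. It was no longer called without pig 4, 6 or 7, with normexp, the authors' values, no pig block, a slide block or no scaling. CD3E and CD3G were not called.

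Of 36 groups of levels or ratios of the family, SERPINE2, FOS, CLDN5 and CD3D tested for a sample far from the others, 0 held one, where chance gives about 1 in 20.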

How the results depend on the processing

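Ratios of MMP3 and MMP9, which were chosen for high values in these pigs, are followed as values only. Over all settings, MMP3 ranged from 0.12 to 0.65 for YOd/Sd, from 0.48 to 1.01 for WOd/Sd and from 0.45 to 0.73 for onion/Sd, and MMP9 from 0.42 to 1.07, from 0.48 to 0.62 and from 0.46 to 0.72. The differences of MMP3 and MMP9 from TIMP1 for YOd/Sd turned below 0 without pig 4 (-0.28 and -0.12), while their other differences from TIMP1 and TIMP2 stayed above 0 in the settings run. Without pig 2, MMP14 (0.59) was called for YOd/Sd, as were 327 of 2479 genes. MMP1 was called for WOd/Sd without pig 5 (0.60), 7 (0.60) or 8 (0.67). In these settings 55 of 2421, 87 of 2453 and 45 of 2449 genes were called. TIMP1 was called for the difference between the onions without pig 5 (0.90), as were 121 of 2481 genes. Nothing is read from these calls.

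The number of genes called fell with no replicate block, that is without pairing the segments of a pig, from 111 to 20 for YOd/Sd, from 29 to 10 for WOd/Sd, from 30 to 10 for onion/Sd and from 88 to 5 for the difference between the onions. The counts were 63 with quantile normalisation for YOd/Sd, and 65, 12 and 48 with normexp for YOd/Sd, WOd/Sd and the difference. A slide block took the place of the pig block and left out pigs 2 and 7. It also no longer paired the segments of pigs 6 and 8, which shared a slide. The slide block gave 40 for the difference. For YOd/Sd it gave 327, the same values as leaving out pig 2, since pigs 1 and 4 lay on different slides, and no scaling gave 16 for onion/Sd. With each pig left out in turn, counts ranged from 56 to 327 for YOd/Sd, highest without pig 2, from 44 to 87 for WOd/Sd, highest without pig 7, from 18 to 49 for onion/Sd and from 44 to 153 for the difference.

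Ratios that were not called changed sign in a few settings. Without scaling, YOd/Sd was -0.0012 for MMP1, -0.25 for MMP2 and -0.20 for TIMP2, onion/Sd was -0.078 for MMP2, -0.11 for TIMP1 and -0.038 for TIMP2, and the difference between the onions was -0.075 for MMP9. MMP2 for YOd/Sd was -0.0017 with the authors' values, and TIMP1 for onion/Sd was -0.011 with quantile normalisation and -0.12 with the mean of its probes. With a slide block MMP14 for WOd/Sd was -0.033, and the difference was 0.17 for MMP3 and 0.0092 for TIMP2, which had 0.021 with normexp. With pigs left out, MMP2 ranged from -0.029 to 0.11 for YOd/Sd and from -0.032 to 0.22 for WOd/Sd. For WOd/Sd, MMP14 ranged from -0.033 to 0.16 and TIMP1 from -0.51 to 0.094, and for onion/Sd TIMP1 ranged from -0.11 to 0.24. The difference ranged from -0.16 to 0.092 for MMP2, from -0.10 to 0.54 for MMP9 and from -0.10 to 0.11 for TIMP2. The cause was not tested in any of these settings. The probes of the family were well above background throughout, but MMP3 was dim in some segments. Its signal was 74.8 and 168 in the Sd segments of pigs 6 and 7, beside array medians of 53.5 and 53.7. With normexp the MMP3 ratio was 0.56 for WOd/Sd and 0.48 for onion/Sd, against 0.77 and 0.62.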
